A study of Drosophila melanogaster with 33 samples.

Results

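The accessible chromatin of 9 ion channel genes was described in sorted Drosophila brain cells: the sodium leak channel gene narrow abdomen (na) with unc79 and unc80, the voltage-gated sodium channel gene paralytic (para), the voltage-gated calcium channel genes cacophony (cac), Ca-alpha1D and Ca-alpha1T, and the cation channel genes Ih and TrpA1. Members were all peaks, in any of 33 peak lists, that overlapped the gene body of one of these genes on dm6 or the 1000 bp upstream of its start. This gave 1942 of the 717706 peaks in the series. Peaks of all libraries that shared at least 1 bp were merged, which left 85 of 36210 regions at the 9 genes.

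The assay was ATAC-seq, in which a transposase cuts open chromatin and the cut ends are sequenced. All flies carried the Clk-GAL4 driver and a UAS-GFP-NLS transgene, so that nuclei of cells expressing the driver were green, and adult brains were dissociated and sorted. GFP-positive cells were taken as clock neurons: per01 mutants at CT24 (n = 4) and CT36 (n = 4), wild type in constant darkness (DD) at CT24 (n = 3) and CT36 (n = 3), and wild type in light-dark cycles (LD) at ZT0 (n = 4) and ZT12 (n = 4). GFP-negative cells served as non-clock cells, with no time in their labels: per01 in DD (n = 4), wild type in DD (n = 3) and wild type in LD (n = 4). The titles of the per01 non-clock samples name no regime, and they were taken as DD like the per01 clock neurons. The paper compares non-clock cells at dawn and dusk, but the times of these libraries were not used here. ZT0 and ZT12 mark lights on and lights off, and CT24 and CT36 the matching subjective dawn and dusk in darkness. The per01 flies lack functional Period and were given as per01/Y. The wild-type label gave no sex, and the study's methods state that brains of both sexes were dissected, with no shares. Fly ages were not given in the sources used here. The driver labels several classes of clock neuron together, each sample pooled many brains, and the non-clock cells are a mixture of other neurons and glia. A weaker peak in such pools can reflect fewer cells with open chromatin or less open chromatin in each cell, and these cannot be told apart.

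Channels of this kind set how readily a neuron fires. The na protein is the pore of a sodium leak channel that depolarizes neurons at rest, and Unc79 and Unc80 are large proteins needed for that channel to work. In Drosophila, na, unc79 and unc80 are all required for normal locomotor rhythms. The para gene encodes the sodium channel of action potentials, cac encodes the calcium channel of synaptic release, Ca-alpha1D an L-type and Ca-alpha1T a T-type calcium channel, which opens at low voltage. Ih encodes a hyperpolarization-activated cation channel, and TrpA1 a channel opened by warmth and chemical irritants.

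Each region is named by its gene and the distance in bp of its median summit from the first annotated start of that gene, so that Ca-alpha1T +25390 lies 25390 bp into the gene and unc79 -23 lies 23 bp before it. A region counted as promoter when its summit was within 500 bp of any annotated transcript start of the gene. By this rule 15 regions were promoters, 54 lay in introns, 9 in exons, 5 outside the gene body and 2 at the start of another gene. Levels are the tags over the 74 bases at the highest summit of a region, scaled to the total tags of the library as counts per M tags (CPM). A library with no peak in a region is given as no call.

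Sequences of 6 regions that the comparisons below turn on are shown, as 300 bases on the gene's own strand, read from the Release 6 genome (dm6). The first 3 lie in introns of Ca-alpha1T: one higher in clock neurons in every cell type comparison, one with a call in all non-clock libraries and in no clock neuron library, and one that holds both clock motifs searched for. Capitals mark matches on either strand to the E-box (CACGTG), the VP-box (TTACGTAA or TTATGTAA) or the GAGA motif (GAGAG).
Ca-alpha1T +32708 (chrX:6159625-6159924, minus strand): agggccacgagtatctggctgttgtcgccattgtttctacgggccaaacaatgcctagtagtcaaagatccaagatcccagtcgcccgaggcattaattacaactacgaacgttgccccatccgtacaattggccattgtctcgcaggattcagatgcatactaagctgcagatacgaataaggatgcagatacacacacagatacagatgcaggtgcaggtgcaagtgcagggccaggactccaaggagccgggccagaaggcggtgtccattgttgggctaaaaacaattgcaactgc
Ca-alpha1T +25390 (chrX:6166943-6167242, minus strand): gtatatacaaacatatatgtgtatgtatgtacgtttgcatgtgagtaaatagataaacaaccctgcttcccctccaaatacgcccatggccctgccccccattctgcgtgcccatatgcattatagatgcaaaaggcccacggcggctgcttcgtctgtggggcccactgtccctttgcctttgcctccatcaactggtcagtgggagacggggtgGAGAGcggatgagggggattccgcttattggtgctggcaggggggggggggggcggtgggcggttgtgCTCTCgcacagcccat
Ca-alpha1T +44889 (chrX:6147444-6147743, minus strand): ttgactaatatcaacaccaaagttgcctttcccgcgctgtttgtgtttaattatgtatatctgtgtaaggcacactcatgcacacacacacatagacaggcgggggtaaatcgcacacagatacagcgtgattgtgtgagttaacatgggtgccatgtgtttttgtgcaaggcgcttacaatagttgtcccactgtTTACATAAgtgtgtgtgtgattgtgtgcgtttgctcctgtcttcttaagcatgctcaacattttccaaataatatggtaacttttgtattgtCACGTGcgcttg

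The other 3 belong to the genes of the leak channel's partners. The unc79 -23 window is the stretch just before the annotated start, where per01 libraries were lower. The unc79 +7025 window is the intron region of that gene with an E-box, and its last bases run into an exon. The unc80 -833 window is the upstream region that differed by regime and genotype.
unc79 -23 (chr3R:19246131-19246430, minus strand): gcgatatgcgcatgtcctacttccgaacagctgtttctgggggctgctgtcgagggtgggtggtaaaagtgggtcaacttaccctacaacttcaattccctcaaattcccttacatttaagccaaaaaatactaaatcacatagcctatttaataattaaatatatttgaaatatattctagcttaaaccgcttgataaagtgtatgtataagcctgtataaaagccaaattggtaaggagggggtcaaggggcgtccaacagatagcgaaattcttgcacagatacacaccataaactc
unc79 +7025 (chr3R:19238955-19239254, minus strand): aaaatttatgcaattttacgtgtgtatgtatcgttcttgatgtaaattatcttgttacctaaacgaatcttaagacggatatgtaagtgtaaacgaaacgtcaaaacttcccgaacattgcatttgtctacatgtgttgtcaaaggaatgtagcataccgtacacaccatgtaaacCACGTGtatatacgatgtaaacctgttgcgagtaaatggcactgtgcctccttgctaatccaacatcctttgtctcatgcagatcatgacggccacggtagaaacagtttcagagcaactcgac
unc80 -833 (chr3R:27661456-27661755, plus strand): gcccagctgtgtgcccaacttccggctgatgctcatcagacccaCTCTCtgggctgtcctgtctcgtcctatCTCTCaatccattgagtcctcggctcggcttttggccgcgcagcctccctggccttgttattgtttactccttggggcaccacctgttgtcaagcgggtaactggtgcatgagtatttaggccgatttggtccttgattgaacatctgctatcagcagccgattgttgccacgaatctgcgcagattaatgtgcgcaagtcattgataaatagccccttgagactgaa

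Over all regions of the series, 6.02% of 36194 windows of 300 bases held an E-box, 2.34% a VP-box and 38.0% a GAGA motif. At the 9 genes an E-box was found in 7 of 85 windows, all 7 in introns (6 of Ca-alpha1T and unc79 +7025), and in 0 of 15 promoters. The VP-box was found in 2 windows, Ca-alpha1T +44889 and Ih -43. GAGA stood in 44 of 85 windows, 29 of 54 introns and 5 of 15 promoters. A match is a description of the letters and no sign of binding.

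Libraries of clock neurons held 4.18 to 17.0 M tags and those of non-clock cells 16.7 to 36.2 M, so that the weakest called peak stood at 1.47 to 2.63 CPM in clock neurons and at 1.18 to 1.55 CPM in non-clock cells. The summed peaks at 9 genes known in clock neurons came to 268 to 336 CPM in clock neurons in LD, against 142 to 162 in non-clock cells in LD, to 264 to 319 against 135 to 185 in DD, and to 314 to 417 against 182 to 205 in per01. Other cell markers moved with the sort too. The 7 glial genes summed to 18.9 to 50.1 CPM in clock neurons in LD, against 41.0 to 55.3 in non-clock cells in LD, with 39.8 to 58.5 against 62.6 to 98.4 in DD and 39.3 to 51.6 against 76.3 to 90.1 in per01. The glial gene repo was called in 1 of 22 clock neuron libraries and in 11 of 11 non-clock libraries, and the blood cell gene srp in 22 of 22 and 0 of 11. The 2 blood cell genes, srp and Hml, summed to 4.35 to 8.95 CPM in clock neurons in LD, against 0 in non-clock cells. These sums were 3.78 to 7.22 against 1.58 to 2.31 CPM in DD and 3.72 to 6.80 against 0 to 2.42 CPM in per01. Of 4 photoreceptor genes ninaE, chp and ninaC were at 0 in all libraries, and norpA had 47.3 to 92.5 CPM in clock neurons in LD, against 91.9 to 106 in non-clock cells in LD, with 45.9 to 75.4 against 79.4 to 89.7 in DD and 50.2 to 79.5 against 79.7 to 94.5 in per01. The 5 general neuronal genes averaged a sum of 591 CPM in clock neurons, against 704 in non-clock cells, in LD, of 685 against 651 in DD and of 630 against 661 in per01. The part of depth and of these cell types in the results was not tested. The labels name no batch. The genotype cannot be checked in these lists, because per01 is a point mutation.

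At least 1 region was found at each of the 9 genes, and they differed widely in number. Ca-alpha1T (chrX:6104085-6192483, minus strand) had 38 regions, 32 of them in introns, and para (chrX:16455027-16533096, minus strand) had 19, 13 of them in introns. The other genes had 1 region (na, chrX:14266367-14277416), 2 (TrpA1, chr3L:8894404-8905200), 3 (unc80, chr3R:27662439-27677099, and Ca-alpha1D, chr2L:16165831-16190540), 4 (unc79, chr3R:19230764-19246130), 7 (Ih, chr2R:14276130-14300095) and 8 (cac, chrX:11931280-11985087). In all, 66 regions were on the X chromosome. Each library called between 48 and 71 peaks at these genes.

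In all 33 libraries a peak was called at 9 of 15 promoters, 14 of 54 introns, 2 of 9 exons and 4 of 5 regions outside the gene bodies, 31 of the 85 regions in all. Over the series this held for 42.9% of 11073 regions within 500 bp of the start of any gene, for 18.0% of those in introns, for 13.9% of those in exons and for 25.0% of all regions. For mean levels over the 33 libraries, a library with no call was set to its weakest called peak. The median of these was 12.7 CPM over promoters, 2.44 CPM over introns and 1.85 CPM over exons, and single regions ranged from 1.71 to 46.6 CPM. The low values rest mostly on levels set for missing calls. The exon median is that of para +75200, called in 10 of 33 libraries, and the lowest value that of Ih +13291, called in 1. The highest was the unc80 promoter, unc80 -203, followed by Ih -43. TrpA1 had no region called in all libraries.

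**Figure D1:**
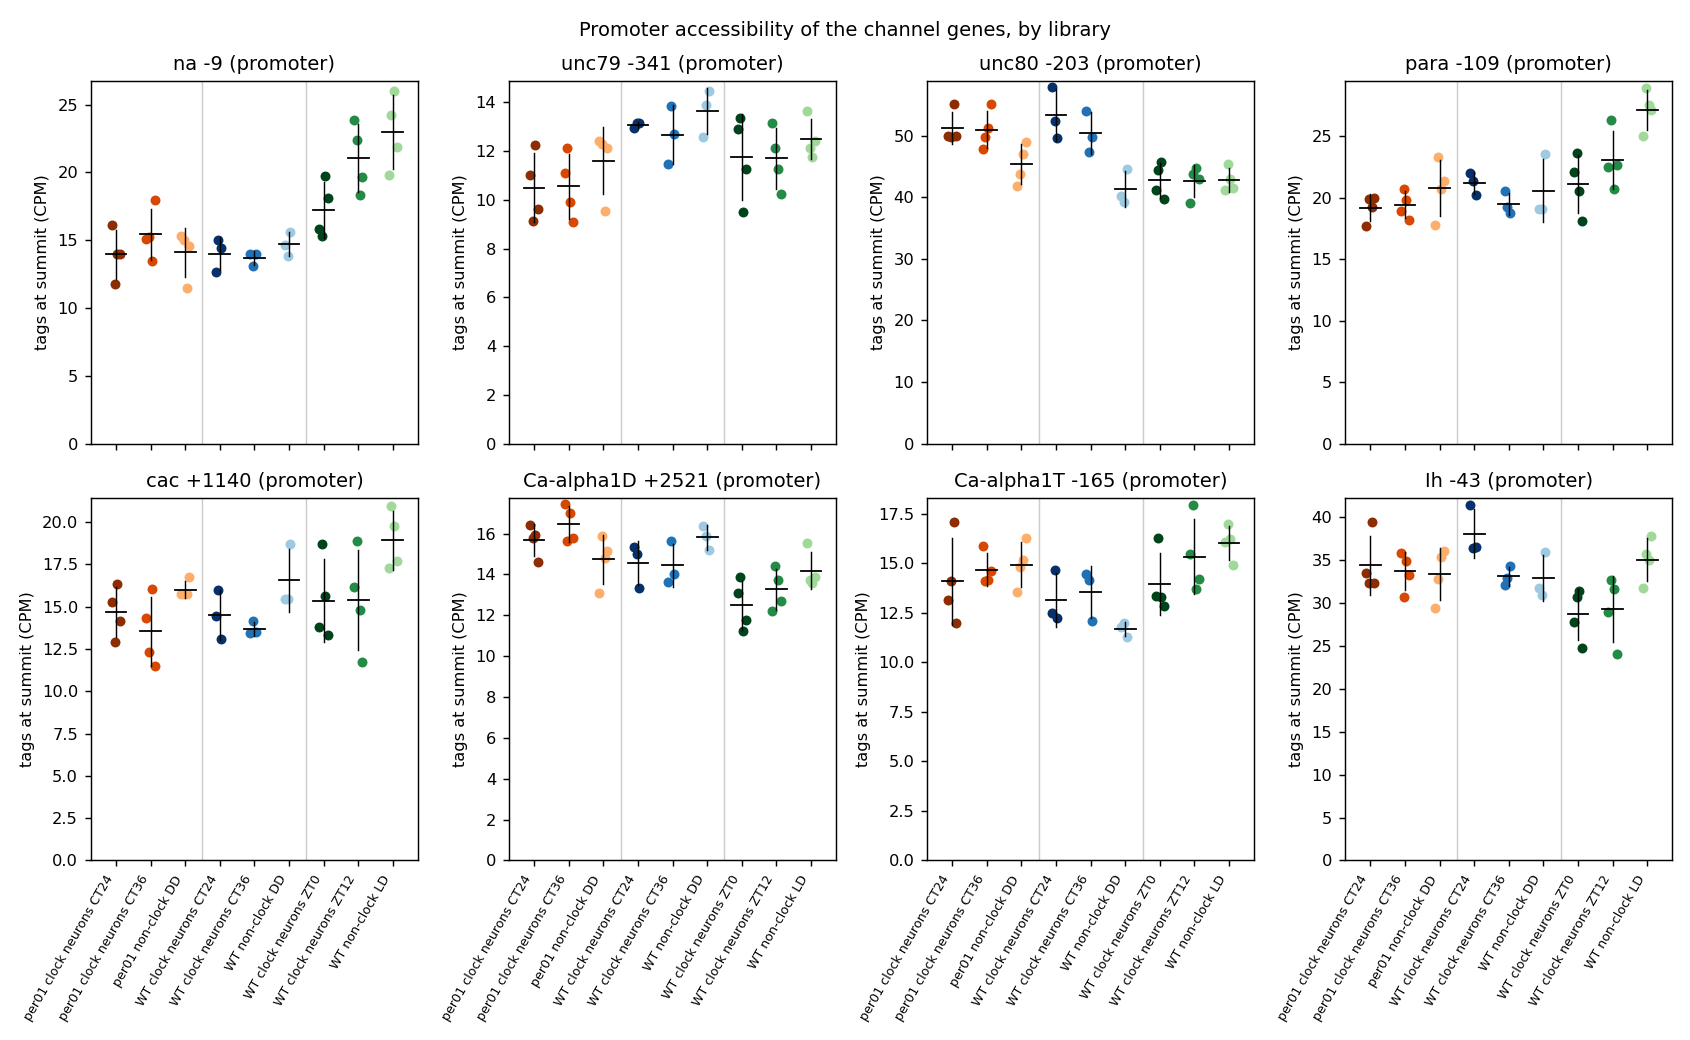
Tags at the summit in CPM (vertical axis) of the highest promoter region of 8 of the genes, 1 panel each, for the 9 groups of libraries (horizontal axis). Filled points are libraries, and the horizontal and vertical lines are the mean and SD of a group. In DD all 6 clock neuron libraries lie above the non-clock libraries at unc80 -203, with 47.3 to 57.9 CPM against 39.1 to 44.6 CPM, while the groups overlap at na -9.

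Promoters were compared first between clock neurons and non-clock cells. In LD, 0 of 11 promoter regions tested were called higher and 4 lower in clock neurons, with a median log2 change of -0.12. In DD the counts were 3 higher and 1 lower of 12 (median 0.04), and in per01 1 higher and 3 lower of 12 (median -0.04). These calls used adjusted p below 0.1 over all regions tested. TrpA1 +2692 was 1 of the 3 called higher in DD and the 1 called higher in per01. It had no call in any non-clock library, so that these calls rest on the levels set for missing calls. Over the series 13.4% of promoters were called higher and 23.5% lower in LD, 10.6% and 35.5% in DD and 9.59% and 21.8% in per01.

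Introns held most of the called regions. In LD, 21 of 44 intron regions were called higher and 11 lower in clock neurons (median log2 0.19), in DD 14 higher and 6 lower of 39 (median 0.19), and in per01 12 higher and 6 lower of 35 (median 0.14). The shares over all introns of the series were 42.2% higher and 24.9% lower in LD, 36.7% and 23.6% in DD and 33.9% and 24.9% in per01, and whether introns and promoters differ was not tested. Over all classes the counts were 24 higher and 17 lower of 66 in LD, where 33.6% and 23% of all regions tested were called higher and lower, and 20 and 7 of 61 in DD, where 28% and 27% were. In per01 they were 14 and 9 of 57, against 26% and 22.3%. Missing calls were set to the weakest peak of the library, at 1.47 to 2.63 CPM for clock neurons and 1.18 to 1.55 CPM for non-clock cells. Of the regions called higher, 1 in LD, 1 in DD and 2 in per01 had calls in a smaller share of clock neuron than of non-clock libraries. All were introns, and their clock neuron values rest in part on these higher levels. With no call in any library of one cell type were 6 of the 24 and 3 of the 17 in LD, 3 of the 20 and 3 of the 7 in DD and 4 of the 14 and 3 of the 9 in per01, and for these the calls by library are given below in place of a change. In LD the split turned with the scaling: relative to total tags, which moved the median of all regions to -0.07 from 0.03, 15 were higher and 24 lower. The corresponding split was 17 and 8 in DD and 18 and 4 in per01.

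**Figure D2:**
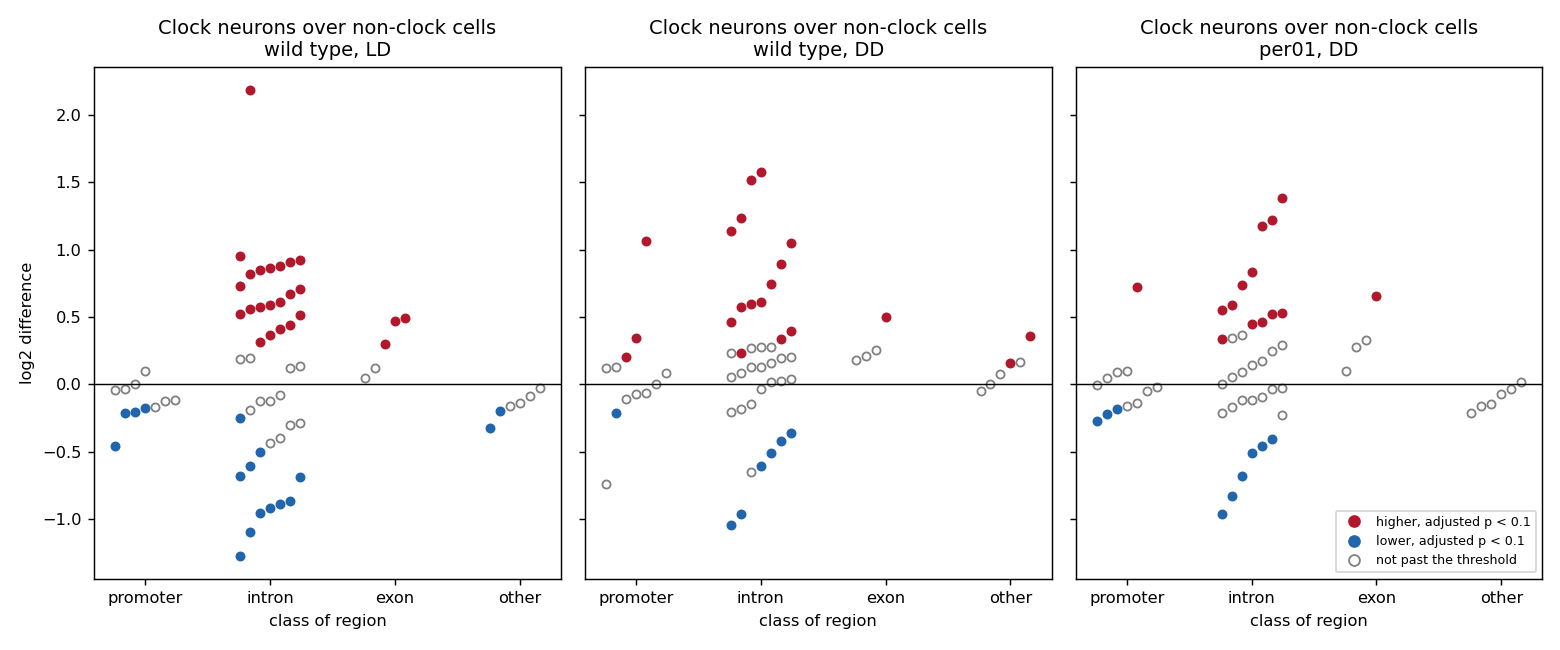
Log2 change of each region in clock neurons over non-clock cells (vertical axis), by class of region (horizontal axis), in wild type in LD and in DD and in per01 (panels). Filled points passed an adjusted p of 0.1, in red where higher and in blue where lower in clock neurons, and open points did not. In LD 0 promoters were higher and 4 lower of 11, and 21 introns were higher and 11 lower of 44.

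The counts at para and Ca-alpha1T, the genes with the most regions, ran along long introns. At para, 11 of 16 regions were called higher and 3 lower in clock neurons in LD, 8 and 0 of 15 in DD and 5 and 1 of 14 in per01. At Ca-alpha1T both directions were found, with 9 higher and 9 lower of 30 in LD, 7 and 5 of 27 in DD and 6 and 6 of 24 in per01. Over all X regions of the series, 30.4% were called higher and 26.8% lower in LD, 19.9% and 29.1% in DD and 18.2% and 26.1% in per01. Relative to total tags, para had 5 higher and 4 lower in LD, with 7 and 0 in DD and 6 and 0 in per01. Whether the genes differ from each other was not tested.

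Regions of Ca-alpha1T that were lower in clock neurons stood close to regions that were higher. The clearest was Ca-alpha1T +25390 (chrX:6166782-6167267). It had no call in any of the 22 clock neuron libraries, while non-clock cells had 4.48, 4.75, 4.26 and 4.66 CPM in LD, 3.46, 3.55 and 4.26 CPM in DD and 3.47, 3.35, 3.97 and 3.47 CPM in per01. All 11 non-clock libraries were thus above the level at which the clock neuron libraries called their weakest peak anywhere. With no call on one side, no change or test is given. Ca-alpha1T +27189 (chrX:6164869-6165514) was called in 6 of 8 clock neuron libraries in LD, at 2.01 to 2.81 CPM, in 1 of 6 in DD, at 2.16 CPM, and in 0 of 8 in per01. Non-clock cells had 4.01, 6.37, 5.16 and 5.08 CPM in LD, 3.15, 3.55 and 4.48 CPM in DD and 3.68, 4.01, 4.09 and 3.89 CPM in per01. It was lower in clock neurons by a log2 change of -1.09 ± 0.20 (SE, adjusted p = 0.00028) in LD and of -0.96 ± 0.15 (0.00035) in DD. Missing calls were set to the lowest tag number called in that library, which in DD concerned 5 of 6 clock neuron libraries, so these values are estimates and not bounds. Another such region, Ca-alpha1T +9895, with a call in 2 of 8, 2 of 6 and 1 of 8 clock neuron libraries in LD, DD and per01 and in all 11 non-clock libraries, changed by -0.88 ± 0.17, -0.51 ± 0.14 and -0.68 ± 0.13 (adjusted p = 0.00053, 0.01 and 0.00037).

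The promoter of the gene, Ca-alpha1T -165, had 12.8 to 18.0 CPM (median 14.0) in clock neurons in LD, against 16.1, 17, 16.2 and 14.9 CPM in non-clock cells, with a change of -0.04. In DD it was higher in clock neurons, with 12.1 to 14.7 CPM (median 13.3), against 11.8, 12 and 11.3 CPM, a change of 0.20 ± 0.07 (adjusted p = 0.039, and 0.11 relative to total tags), and in per01 the change of -0.14 missed the threshold (0.2). Further into the gene, Ca-alpha1T +32708 (chrX:6159583-6160230) was higher in clock neurons. Its level was 3.55 to 10.4 CPM (median 6.57) in clock neurons in LD, against 3.81, 5.28, 4.91 and 4.53 CPM in non-clock cells in LD, and these groups overlapped. In DD it was 4.13 to 7.72 CPM (median 5.97) in clock neurons, against 2.96, 2.85 and 2.58 CPM in non-clock cells, and in per01 4.07 to 8.65 CPM (median 5.48), against 2.05, 2.24, 2.71 and 2.57 CPM, with no overlap. The log2 change was 0.52 ± 0.21 (adjusted p = 0.044) in LD, 1.05 ± 0.16 (0.00035) in DD and 1.18 ± 0.20 (0.00018) in per01. Relative to total tags the LD change was 0.42 and missed the threshold (0.13). Ca-alpha1T +53751 (chrX:6138481-6139085) was similar, with 4.39, 5.46, 3.5 and 4.1 CPM in per01 clock neurons at CT24, 5.1, 3.91 and 4.68 CPM and 1 library with no call at CT36, and 1.63 and 1.83 CPM with 2 of 4 libraries called in per01 non-clock cells. It changed by 0.57 ± 0.26 (0.077), 1.52 ± 0.21 (0.00018) and 1.22 ± 0.19 (7.2e-05) in LD, DD and per01, and its LD call ended relative to total tags too (0.47, 0.16). Ca-alpha1T +37641 (chrX:6154624-6155092) was called in 12 of 22 clock neuron libraries and in 0 of 11 non-clock libraries, at 2.59 to 4.83 CPM. Ca-alpha1T +47958 was higher in LD (0.93 ± 0.20, 0.00099), with calls in 7 of 8 clock neuron and 3 of 4 non-clock libraries. In DD it had a call in 1 of 6 clock neuron libraries, at 1.96 CPM, and in 2 of 3 non-clock libraries, at 1.30 and 1.46 CPM, and no change is given.

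**Figure D3:**
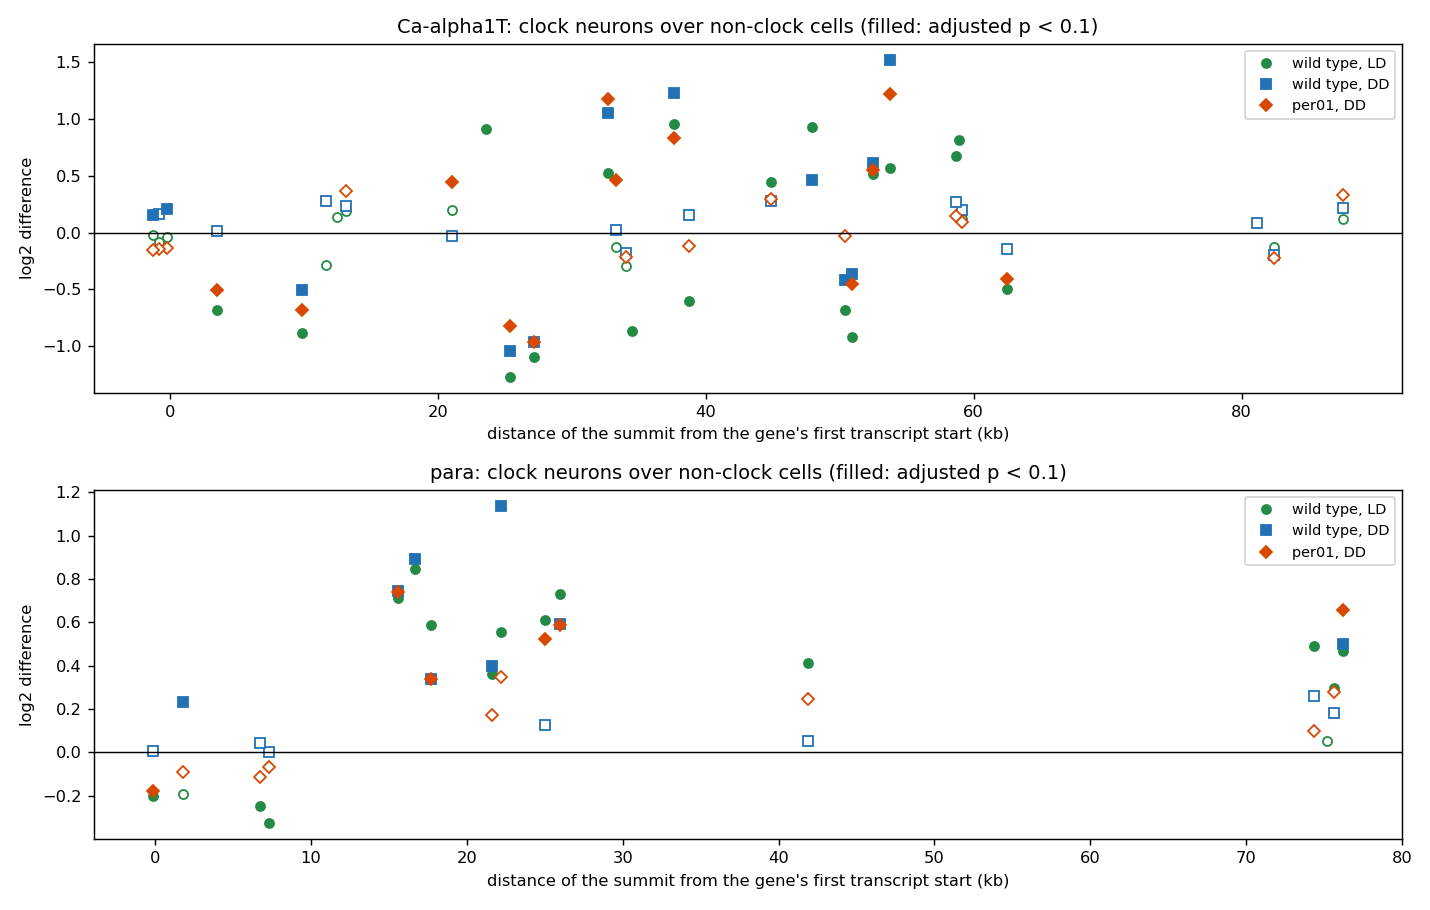
Log2 change in clock neurons over non-clock cells (vertical axis) against the distance of the summit from the first transcript start (horizontal axis, kb) for Ca-alpha1T and para, with a symbol for each of wild type in LD, wild type in DD and per01. Filled symbols passed an adjusted p of 0.1. Ca-alpha1T +32708 is higher in clock neurons in all 3 comparisons, though in LD not relative to total tags. Regions with no call in one cell type, such as Ca-alpha1T +25390, are drawn at the levels set for missing calls.

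At para the higher regions lay in introns and in exons near the end of the gene, the exon regions being para +74330 and para +75625, higher in LD, and para +76191. The intron region para +26006 (chrX:16506971-16507160) was 2.71 to 4.7 CPM (median 3.69) in clock neurons in LD, against 2.18, 2.22, 2.56 and 2.35 CPM in non-clock cells, 3.05 to 4.59 CPM (median 3.91) in DD, against 2.73, 2.21 and 2.67 CPM, and 3.08 to 5.03 CPM (median 3.92) in per01, against 1.87, 2.59, 2.36 and 2.81 CPM. Every clock neuron library was above every non-clock library of its own comparison, with log2 changes of 0.73 ± 0.17 (adjusted p = 0.0016), 0.59 ± 0.17 (0.013) and 0.59 ± 0.17 (0.0098). The stronger intron region para +22210 changed by 0.56 ± 0.20 (0.03) in LD (0.46 and 0.11 relative to total tags), 1.14 ± 0.20 (0.00081) in DD and 0.35 in per01, where adjusted p was 0.28. The highest intron region, para +1805, was 25.6 to 37.2 CPM in clock neurons in LD, against 30.6, 43.9, 39.3 and 38.3 CPM in non-clock cells, and its change was -0.19, 0.23 and -0.09, past the threshold in DD only (adjusted p = 0.053).

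The promoter para -109 had 18.1 to 26.3 CPM (median 22.3) in clock neurons in LD, against 25, 28.9, 27.6 and 27.1 CPM in non-clock cells. It was lower by a log2 change of -0.20 ± 0.07 (adjusted p = 0.029) in LD and of -0.18 ± 0.08 (0.079) in per01, with 0.01 in DD, and the per01 call ended with either other scaling. For the calcium channel cac, the highest promoter, cac +1140 (chrX:11983796-11984288), had 11.8 to 18.9 CPM (median 15.2) in clock neurons in LD, against 17.3, 21, 19.7 and 17.7 CPM in non-clock cells. In DD it had 14.5, 16 and 13.1 CPM at CT24 and 13.4, 14.1 and 13.5 CPM at CT36 in clock neurons, against 15.5, 15.5 and 18.7 CPM. It was the only promoter called in the same direction in all 3 comparisons, by -0.21 ± 0.10 (0.09), -0.21 ± 0.08 (0.042) and -0.27 ± 0.09 (0.02). In per01 it had 11.5 to 16.3 CPM (median 14.2), against 15.8, 15.8, 15.7 and 16.8 CPM. The groups overlapped in all 3. The call ended in at least 1 comparison when X and other chromosomes were scaled apart, and in at least 1 relative to total tags. The highest intron region, cac +1955, had 11.5 to 15.6 CPM (median 13.9) in clock neurons in LD, against 14.6, 16.5, 15.7 and 15.6 CPM in non-clock cells, and changed by -0.08, 0.13 and -0.02 in LD, DD and per01, past the threshold in none. No region of cac was called higher: 0 and 3 of 7 in LD, 0 and 1 of 6 in DD and 0 and 1 of 6 in per01. One of them, cac +627, rested on the limit set for missing calls, with -0.95 ± 0.23 (0.0025) in LD, against -0.05 with the limit of the region itself.

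At Ih the intron region Ih +4558 (chr2R:14280375-14281012) was called in all 22 clock neuron libraries and in 6 of 11 non-clock libraries. It had 6.75 to 10.1 CPM (median 8.68) in clock neurons in LD, against 5.64 CPM in the 1 non-clock library of 4 with a call. In DD it had 9.18 to 11.5 CPM (median 10.1) in clock neurons, against 5.13 and 5.61 CPM in 2 of 3 non-clock libraries, and in per01 9.32 to 13.4 CPM (median 12.2), against 5.38, 5.95 and 6.22 CPM in 3 of 4. All clock neuron libraries were above all non-clock calls. The log2 change was 2.19 ± 0.29 (adjusted p = 1.7e-05), 1.58 ± 0.35 (0.0036) and 1.38 ± 0.27 (0.00056) in LD, DD and per01, and 0.85, 0.98 and 0.96 with the limit of the region for missing calls, still past the threshold. Another intron region, Ih +8348, changed by 0.88 ± 0.16 (0.00025) in LD, 0.58 ± 0.16 (0.012) in DD and 0.05 in per01. The promoter Ih -43 had 24 to 32.6 CPM (median 29.8) in clock neurons in LD, against 31.7, 35.7, 35 and 37.7 CPM in non-clock cells, a change of -0.18 ± 0.08 (0.061). In DD it had 32.1 to 41.3 CPM (median 35.3), against 31.7, 30.9 and 35.9 CPM, and in per01 30.7 to 39.4 CPM (median 33.3), against 29.3, 32.7, 35.3 and 36.1 CPM, with changes of 0.13 and -0.05 that missed the threshold.

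The 3 genes of the leak channel showed small differences. The na promoter, na -9 (chrX:14265800-14267578), had 15.3 to 23.8 CPM (median 19.0) in clock neurons in LD, against 19.8, 24.2, 26 and 21.9 CPM in non-clock cells in LD. In DD it had 12.6 to 15 CPM (median 14.0) in clock neurons, against 14.6, 13.9 and 15.6 CPM, and in per01 11.7 to 17.9 CPM (median 14.5), against 15.3, 15, 11.5 and 14.6 CPM. The groups overlapped in each comparison, and the changes of -0.17, -0.07 and -0.02 missed the threshold (adjusted p = 0.2, 0.49 and 0.89). The region also lies at the start of the neighbouring gene CG13404, so that its tags cannot be assigned to one of them. The promoter unc79 -341 changed by 0.00, -0.06 and -0.22 ± 0.10, the last past the threshold (adjusted p = 0.093, and 0.36 relative to total tags), and the intron region unc79 +7025 by 0.32 ± 0.11 (0.021, and 0.18 relative to total tags) in LD, 0.19 (0.14) in DD and 0.53 ± 0.10 (0.00031) in per01. The promoter unc80 -203 (chr3R:27662022-27663476) had 57.9, 52.4 and 49.7 CPM at CT24 and 54, 47.3 and 49.8 CPM at CT36 in clock neurons, against 40.2, 39.1 and 44.6 CPM in non-clock cells in DD, with no overlap and a change of 0.34 ± 0.07 (0.0015). The changes in LD and per01 were 0.10 (0.23) and 0.09 (0.21).

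Few peaks were called at TrpA1. Its region TrpA1 +2692 (chr3L:8902430-8902571), at -485 bp from a later start of the gene, was called in 1 of 8 clock neuron libraries in LD, in 5 of 6 in DD and in 5 of 8 in per01, at 1.71 to 4.13 CPM, and in 0 of 11 non-clock libraries. The weakest called peaks stood at 1.18 to 1.55 CPM in non-clock cells, and no change is given. The promoter Ca-alpha1D +2521 (chr2L:16168151-16169620) had 11.3 to 14.4 CPM (median 12.9) in clock neurons in LD, against 15.5, 13.7, 13.6 and 13.9 CPM in non-clock cells, 13.4 to 15.7 CPM in DD, against 16.4, 15.9 and 15.2 CPM, and 14.6 to 17.4 CPM in per01, against 13.1, 15.9, 14.8 and 15.1 CPM. Its changes of -0.04, -0.11 and 0.05 missed the threshold, and the groups overlapped in each comparison. Its intron region Ca-alpha1D +1881 was lower in clock neurons in DD (-0.60 ± 0.19, adjusted p = 0.025), where 1 of 6 clock neuron libraries had a call, at 3.13 CPM, against 3.27, 2.82 and 3.18 CPM in non-clock cells.

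**Figure D4:**
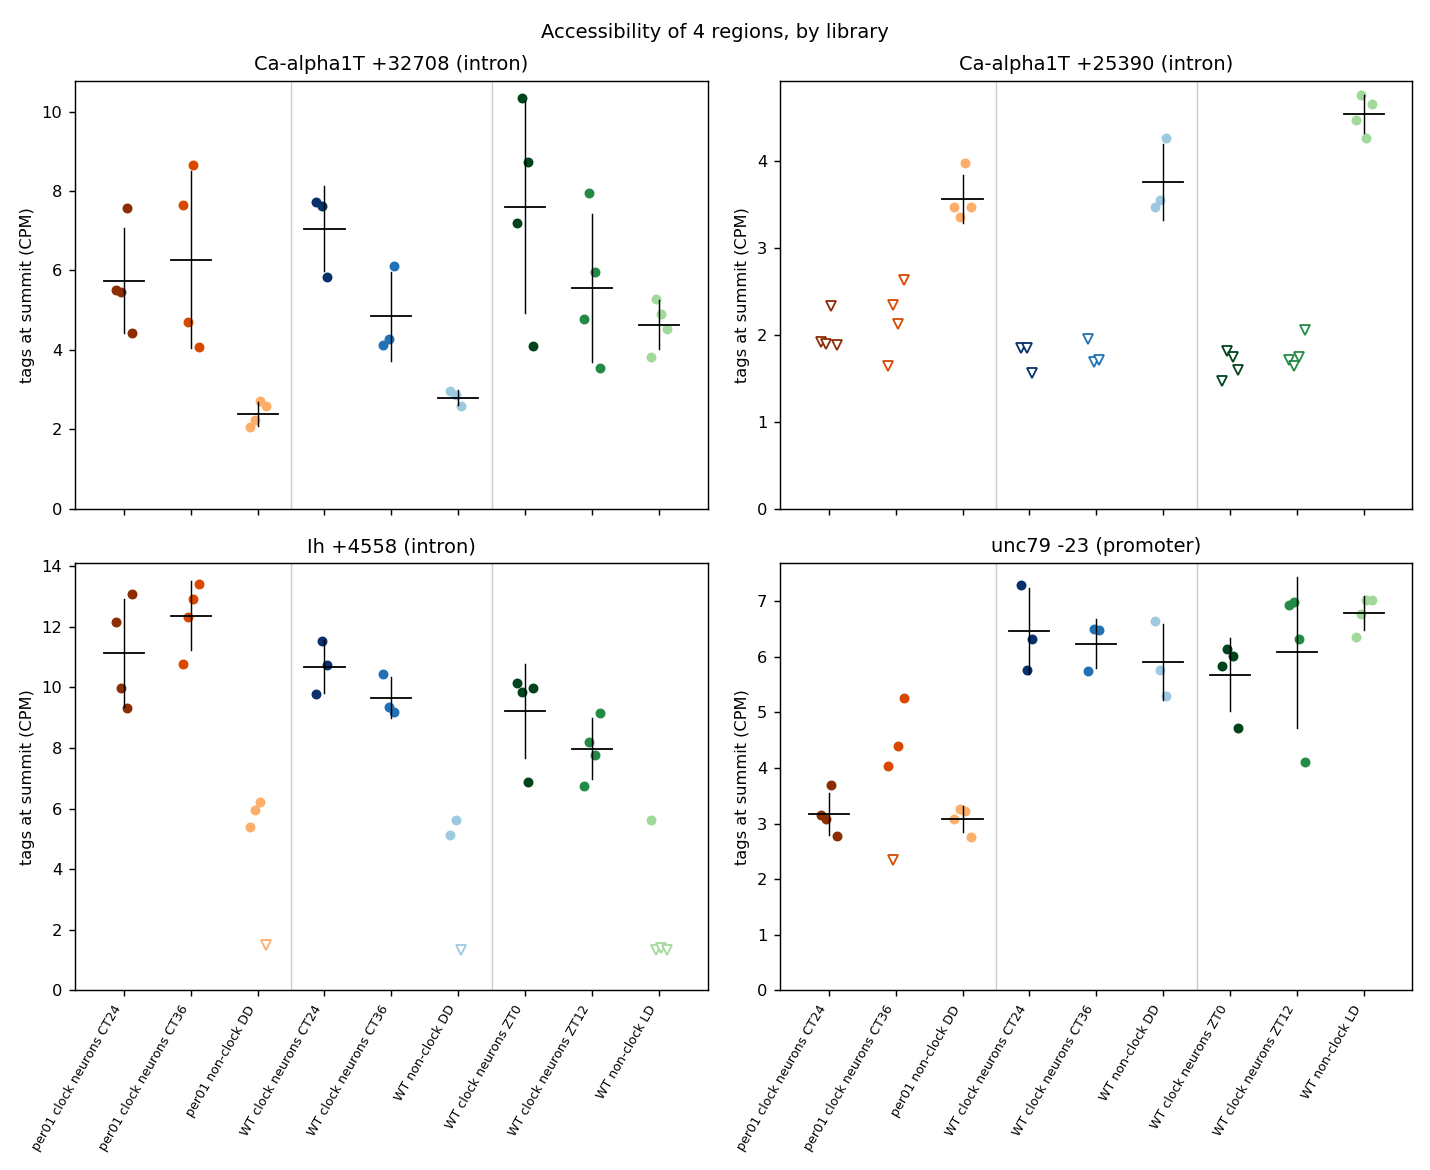
Tags at the summit in CPM (vertical axis) of 4 regions in each library of the 9 groups (horizontal axis). Filled points are libraries with a call, lines the mean and SD of groups in which every library had one, and open triangles stand at the weakest peak of a library with no call. Ca-alpha1T +25390 has no call in the 22 clock neuron libraries, Ih +4558 has one in all 22, and unc79 -23 is lower in per01 in both cell types.

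Of the 55 regions tested in all 3 cell type comparisons, 9 were called higher and 5 lower in clock neurons each time, none was called in opposite directions, and 13 were called in none. The shares over all 19360 such regions of the series were 19.3% higher and 12.0% lower. The regions found this way, several of them outside the rule for named regions and so named after their values were seen, were para +15570, para +17674, para +26006, para +76191, Ih +4558, Ca-alpha1T +32708, Ca-alpha1T +37641, Ca-alpha1T +52508 and Ca-alpha1T +53751 among the higher, and Ca-alpha1T +9895, Ca-alpha1T +25390, Ca-alpha1T +27189, Ca-alpha1T +50903 and cac +1140 among the lower. By class these were 8 higher and 4 lower of 34 introns and 0 higher and 1 lower of 11 promoters. In 6 of the 14 one cell type had no call in any library of at least 1 comparison (Ca-alpha1T +25390, Ca-alpha1T +27189, Ca-alpha1T +37641, Ca-alpha1T +50903, para +15570 and para +76191), so that these calls rest on the levels set. Relative to total tags 11 of the 14 kept all 3 calls. Of the regions called in every library of a comparison, 31 were tested in all 3, and 5 of the 14 were called each time.

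The difference of the cell type change between DD and LD was tested directly. It passed for 2 of 71 regions, both higher in DD, where 4.06% of all regions passed. The upstream region unc80 -833 had 20.7, 23 and 20 CPM at CT24 and 19.1, 17.3 and 21.9 CPM at CT36 in clock neurons, against 16.1, 15.4 and 16.4 CPM in non-clock cells in DD, while in LD clock neurons had 12.8 to 18.0 CPM (median 15.5), against 16.7, 21.2, 17.1 and 17 CPM in non-clock cells. The log2 difference was 0.50 ± 0.13 (adjusted p = 0.042), and 0.46 without non-clock DD replicate 2 and 0.41 without non-clock LD replicate 2, past the threshold in neither. Ca-alpha1T +34507 had no call in clock neurons, 2.54, 3.55, 3.71 and 4.03 CPM in non-clock cells in LD and 2 CPM in 1 of 3 in DD. All its clock neuron values are levels set for missing calls, so that its call says nothing of clock neurons. The count of such regions was 6 without wild-type ZT0 replicate 3 or without non-clock LD replicate 1, and 1 without non-clock DD replicate 2.

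Summed over the gene, a value that moves with the number of peaks called, 2 of 8 genes passed in LD, where 12.4% of genes were called higher and 22.6% lower. Ih had 94.3 ± 10 CPM (SD, n = 8) over 5.75 peaks a library in clock neurons, against 70.7 ± 1.6 CPM (n = 4) over 3.25 peaks in non-clock cells, a change of 0.40 ± 0.08 (adjusted p = 0.0028). Ca-alpha1T had 118 ± 9.9 CPM over 21.6 peaks, against 146 ± 6.5 CPM over 28.5 peaks, a change of -0.31 ± 0.07 (0.006).

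In DD 5 of 9 gene sums were higher in clock neurons and none lower, where 12.6% of genes were higher and 31.7% lower. The unc80 sum was 72.2 ± 4.8 CPM (n = 6), against 57.3 ± 3.3 CPM (n = 3), with 2 peaks in each library of both, a change of 0.33 ± 0.06. The na sum was 26.5 ± 3.4 CPM over 3.5 peaks, against 17.9 ± 0.95 CPM over 2 peaks, a change of 0.53 ± 0.10. All na peaks lay in the 1 region na -9, whose change at the summit missed the threshold, as given above. The na peaks covered 759 to 1269 bp in clock neurons, against 1392 to 1497 bp in non-clock cells. The para sum was 122 ± 8.0 CPM over 14.2 peaks, against 100 ± 11 CPM over 13.7 peaks, a change of 0.28 ± 0.08. The Ih sum was 111 ± 5.7 CPM, against 99.6 ± 5.3 CPM, a change of 0.15 ± 0.04. TrpA1 had 2.45 ± 1.4 CPM over 0.833 peaks in clock neurons, and non-clock cells had no call. In per01 3 of 9 sums were higher, where 14% of genes were higher and 14.8% lower. The unc80 sum was 94.2 ± 15 CPM over 3 peaks, against 68.2 ± 4.9 CPM over 2 peaks (0.45 ± 0.12). The Ca-alpha1D sum was 31.8 ± 5.4 CPM, against 23.3 ± 6.6 CPM (0.45 ± 0.17), over 2 or 3 peaks a library in both cell types. For para it was 116 ± 7.8 CPM, against 102 ± 11 CPM (0.19 ± 0.07). At the summits of unc80 -203 and Ca-alpha1D +2521 the per01 changes missed the threshold, as given above. Mean summits at unc80 -203 were 51.2 and 50.9 CPM at the 2 times, against 45.4 CPM in non-clock cells. Those at Ca-alpha1D +2521 were 15.7 and 16.5 CPM, against 14.7 CPM. How far the number of peaks moved these sums was not tested. The sums that missed the threshold in all 3 comparisons were those of unc79 and cac. Those of unc79 were 25.1 ± 3.1, 28.0 ± 1.5 and 23.8 ± 2.2 CPM in clock neurons in LD, DD and per01, against 25.7 ± 1.3, 27.3 ± 0.32 and 21.8 ± 2.6 CPM in non-clock cells, and those of cac were 67.0 ± 13, 62.2 ± 4.6 and 52.9 ± 9.1 CPM, against 82.2 ± 15, 70.1 ± 8.6 and 59.5 ± 4.4 CPM. The count in DD was 3 without non-clock DD replicate 2, and that in per01 was 1 without per01 CT24 replicate 2 or 4 or per01 non-clock replicate 1, 2 or 3.

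Few regions of these genes were called between times of day. Over the series the test called 34 regions in LD and 112 in wild type in DD. The paper, with DESeq2 on read counts in peaks at the same adjusted p threshold, reports more differential peaks in both regimes. A region that was not called here is not thereby shown to be unchanged. Between ZT12 and ZT0, 0 of 55 regions passed with limma (0.174% of 19486 regions in the series, 1191 at unadjusted p below 0.05), with a median log2 change of 0.04. Between CT36 and CT24 in wild type 1 of 49 passed, where 0.613% of all regions did, and in per01 0 of 45, where 0.00594% did (484 at unadjusted p below 0.05). The na promoter na -9 had 15.8, 15.3, 19.7 and 18.1 CPM at ZT0 and 23.8, 22.4, 18.3 and 19.7 CPM at ZT12, which overlapped, a change of 0.26 ± 0.12 (adjusted p = 0.8). It had 12.6, 15 and 14.4 CPM at CT24 and 14, 13.1 and 14 CPM at CT36, a change of 0.00 ± 0.10. A region with more calls at dawn was Ca-alpha1T +37641, with 2.59, 4.83, 3.4 and 2.81 CPM at ZT0 and no call at ZT12, and with 4.13, 4.79 and 3.62 CPM at CT24 and 2.88 CPM in 1 of 3 libraries at CT36. In per01 2 of 4 libraries had a call at each time. With levels set for missing calls it passed the threshold in neither regime (adjusted p = 0.23 and 0.17), and in DD it passed with the local limit for missing calls (0.06). The E-box regions unc79 +7025 and Ca-alpha1T +44889 also missed the threshold in every time comparison.

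The region that passed in wild type was Ca-alpha1T +3534 (chrX:6188662-6189018). It had no call at CT24 and 3.21, 3.82 and 3.69 CPM at CT36, so that all CT24 values were levels set for missing calls and no change is given. In per01 it had 3.44, 4.66 and 3.43 CPM in 3 of 4 libraries at CT24 and no call at CT36, the other way round, and in LD 1 of 8 clock neuron libraries had a call. The call did not hold with the limit of the region for missing calls (0.50, adjusted p = 0.34), nor without any 1 of 5 of the 6 libraries. The count was 6 without wild-type CT36 replicate 3, of which 1 was higher and 5 lower. Restricted to regions called in every library, 3 regions were lower at CT36, namely Ca-alpha1T +38745 (-0.55), Ca-alpha1T +53751 (-0.63) and para +22210 (-0.54). The last had 11.4, 13.6 and 9.94 CPM at CT24 and 6.31, 6.58 and 11.3 CPM at CT36. The change over time differed between DD and LD for 0 of 60 regions (0.013% of all regions) and between per01 and wild type for 0 of 56 (0.0423%). The median change between CT36 and CT24 was -0.08 in wild type and -0.01 in per01. At unadjusted p below 0.05 the series had 1044 and 1173 regions with such differences.

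The light regime moved more regions, and the X chromosome is given apart from the rest. In clock neurons 6 of 54 regions were higher and 13 lower in DD than in LD, where 9.1% and 12.6% of all regions were. In non-clock cells 0 of 63 were higher and 23 lower, where 7.75% and 8.33% were. Of the X-linked members 1 was higher and 12 lower of 42 in clock neurons and 0 and 23 of 52 in non-clock cells, while of those on other chromosomes 5 were higher and 1 lower of 12, and 0 of 11 passed.

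X-linked regions of the series were lower in DD on balance. The median log2 change over 3422 X regions was -0.32 in clock neurons, against 0.01 over the other chromosomes, and -0.27 over 4194 X regions in non-clock cells, against 0.08. The test called 49.0% of X regions lower and 3.89% higher among clock neurons, and 34.7% lower and 5.36% higher among non-clock cells. The peaks at roX1, an RNA gene of X chromosome dosage compensation in males, summed to 41.4 to 46.7 CPM in clock neurons in DD, against 9.90 to 26.6 CPM in LD, and to 40.1 to 52.9 CPM in non-clock cells in DD, against 17.0 to 29.0 CPM in LD. At roX2 the sums were 22.9 to 27.3 CPM in clock neurons in DD, against 7.38 to 14.0 CPM in LD. The sex of the flies in each wild-type library was not given in the sources used here, and a difference in it cannot be told apart from one of regime. With the X and the other chromosomes scaled apart, 11 members were higher and 3 lower in clock neurons, of which 8 higher and 2 lower were on the X, and 3 higher and 5 lower in non-clock cells, all on the X.

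**Figure D5:**
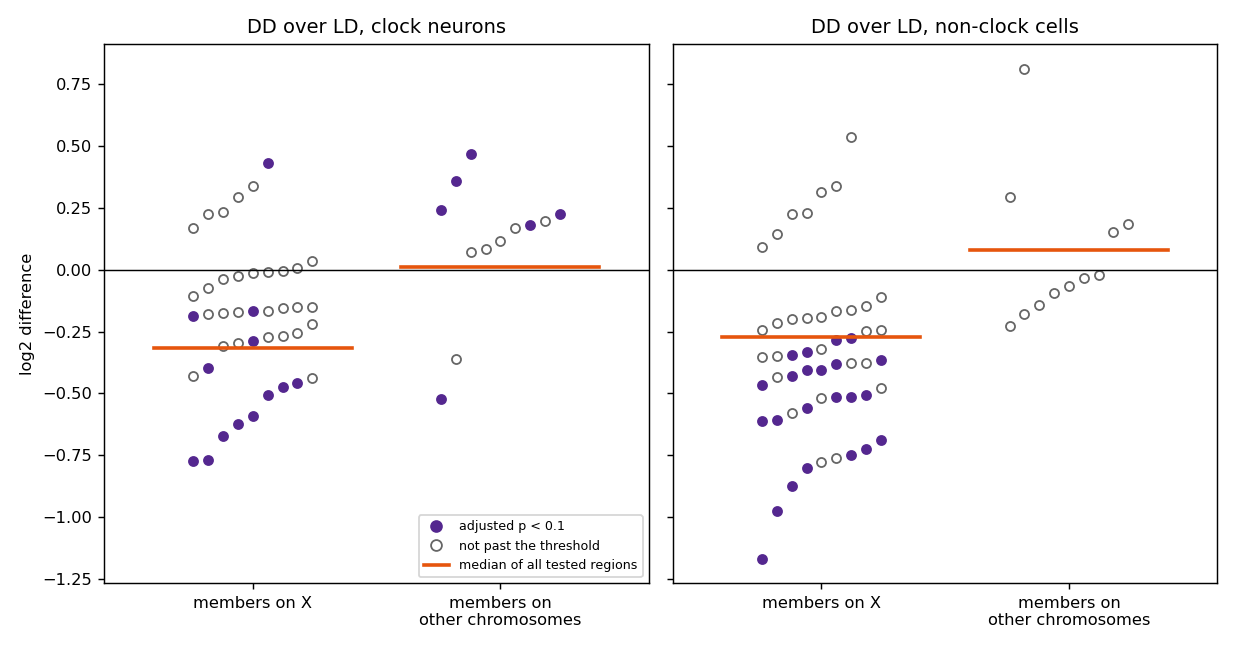
Log2 change in DD over LD (vertical axis) of the members on the X and on other chromosomes (horizontal axis), with a panel for each cell type. Filled points passed an adjusted p of 0.1, open points did not, and bars mark the median over all regions of the series on those chromosomes. The bars for the X stand at -0.32 for clock neurons and -0.27 for non-clock cells, against 0.01 and 0.08 on other chromosomes.

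The na promoter was lower in DD in both cell types, also with the X scaled apart. Clock neurons had 12.6 to 15 CPM (median 14.0) in DD, against 15.3 to 23.8 CPM (median 19.0) in LD, and non-clock cells 14.6, 13.9 and 15.6 CPM in DD, against 19.8, 24.2, 26 and 21.9 CPM in LD. Neither pair of groups overlapped, and na -9 changed by -0.51 ± 0.09 (adjusted p = 0.0013) in clock neurons and by -0.61 ± 0.10 (0.0095) in non-clock cells. The promoters para -109 (-0.17 for clock neurons and -0.38 ± 0.09 for non-clock cells) and Ca-alpha1T -165 (-0.19 and -0.43 ± 0.07) were called lower too, but all these calls ended with the X scaled apart. There clock neurons had a change of 0.11 at para -109 and of 0.09 at Ca-alpha1T -165, and non-clock cells had changes of -0.09 and -0.14.

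The largest falls in DD were in Ca-alpha1T and cac. In clock neurons cac +1472 changed by -0.77 ± 0.29 (adjusted p = 0.083), Ca-alpha1T +47958 by -0.77 ± 0.16 (0.005) and Ca-alpha1T +13172 by -0.67 ± 0.17 (0.012). With the X scaled apart the calls of cac +1472 (-0.50, 0.32) and Ca-alpha1T +13172 (-0.40, 0.18) ended. Ca-alpha1T +47958 was called in 1 of 6 libraries in DD, at 1.96 CPM, against 7 of 8 in LD, at 2.71 to 4.24 CPM. Ca-alpha1T +13172 was called in every library, with 3.05, 3.48 and 5.11 CPM at CT24 and 3.44, 5.25 and 4.68 CPM at CT36, against 5.71, 5.23, 6.31 and 7.83 CPM at ZT0 and 6.84, 5.17, 6.5 and 7.38 CPM at ZT12, which overlapped. In non-clock cells Ca-alpha1T +34507 changed by -1.17 ± 0.22 (0.014), Ca-alpha1T +53751 by -0.98 ± 0.18 (0.012) and Ca-alpha1T +38745 by -0.87 ± 0.15 (0.011). The last had 6.48, 6.28 and 6.8 CPM in DD, against 8.9, 13.4, 12.7 and 14.5 CPM in LD, with no overlap. Ca-alpha1T +34507 and Ca-alpha1T +53751 each had a call in 1 of 3 non-clock libraries in DD and in 4 of 4 in LD. Most of their DD values were thus levels set for missing calls. The non-clock count of 23 was 15 without non-clock LD replicate 2 or 3 or non-clock DD replicate 1, and 10 without non-clock DD replicate 2.

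Of the 6 regions higher in DD in clock neurons 5 were on autosomes, against 3 of 11 with the X scaled apart. The promoter unc80 -203 had 47.3 to 57.9 CPM (median 51.1) in clock neurons in DD, against 39.0 to 45.7 CPM (median 43.4) in LD, with no overlap and a change of 0.22 ± 0.06 (adjusted p = 0.016). Ih -43 changed by 0.24 ± 0.07 (0.021), with 32.1 to 41.3 CPM in DD, against 24 to 32.6 CPM in LD, which overlapped. The upstream region unc80 -833 changed by 0.36 ± 0.07 (0.0045), and Ih -630 by 0.18 (0.042), which with the X scaled apart was 0.14 and missed the threshold (0.18). The exon region Ca-alpha1T +87542, the only one on the X, changed by 0.43 ± 0.14 (0.041), and missed the threshold without wild-type CT24 replicate 3 (0.37) or CT36 replicate 1 (0.39). TrpA1 +2692 changed by 0.47 ± 0.17 (0.077), by 0.42 (0.15) with the X scaled apart and by 0.24 (0.33) with the local limit.

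In per01 the promoter regions unc79 -23 and unc79 -341 were called lower in clock neurons, and unc79 -23 also in non-clock cells. At unc79 -23 (chr3R:19246058-19246219) per01 clock neurons had 3.15, 3.08, 3.69 and 2.77 CPM at CT24 and 4.03, 4.4 and 5.26 CPM with 1 library uncalled at CT36, against 7.29, 5.77 and 6.32 CPM at CT24 and 5.73, 6.49 and 6.48 CPM at CT36 in wild type. In non-clock cells per01 had 3.09, 3.25, 3.23 and 2.75 CPM, against 6.65, 5.76 and 5.29 CPM in wild type. No per01 library reached the level of a wild-type library in either cell type. The log2 change was -0.91 ± 0.16 (adjusted p = 0.0018) for clock neurons and -0.92 ± 0.14 (0.0044) for non-clock cells, and both calls held under every alternative tried. The neighbouring promoter region unc79 -341 had 9.09 to 12.2 CPM (median 10.5) in per01 clock neurons, against 11.5 to 13.9 CPM (median 13) in wild type, a change of -0.37 ± 0.08 (0.01). In non-clock cells this region had 12.4, 12.3, 9.56 and 12.1 CPM in per01, against 12.6, 13.9 and 14.5 CPM.

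Over all members 1 of 47 regions was higher and 6 lower in per01 clock neurons than in wild type in DD, where 7.3% and 7.21% of all regions were. Promoters were 0 higher and 3 lower of 12, and introns 1 higher and 2 lower of 25. Besides unc79 these were para +22210 (-0.57 ± 0.21, adjusted p = 0.094), cac +54067 (-0.45 ± 0.13, 0.04), which lies at the start of the neighbouring gene Pdzd8, cac +3621 (-0.36 ± 0.11, 0.055) and para +1805 (-0.26 ± 0.06, 0.0099). The higher region was Ca-alpha1T +21059 (0.39 ± 0.14, 0.089), called in 5 of 8 per01 and in 1 of 6 wild-type libraries. Most of its wild-type values were thus levels set for missing calls, and it missed the threshold in 9 of 19 alternatives. The count of 7 was 4 without wild-type CT24 replicate 3 or CT36 replicate 3. Taken at CT24 alone 0 regions were higher and 6 lower of 49, where 8.12% of all regions passed in either direction, and at CT36 0 of 46 passed, where 1.61% did and 2453 had an unadjusted p below 0.05. At CT24 the unc79 -23 change was -1.05 ± 0.19 (0.012) and at CT36 it was -0.78 ± 0.26 (0.21). The change of these regions over time did not differ between genotypes beyond the threshold, as given above. Over both times, 1 of the 36 X-linked members was higher and 4 lower, where 7.44% and 9.66% of X regions were. The per01 flies were per01/Y and the sex of the wild-type ones was not given. A difference of sex thus cannot be told apart from one of genotype in either cell type. Peaks at roX1 and roX2 summed to 55.3 to 79.0 CPM in per01 clock neurons, against 64.3 to 73.3 CPM in wild type in DD.

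In non-clock cells 4 of 59 regions were higher in per01 and 1 lower, where 2.12% and 2.75% of all regions were. The lower one was unc79 -23. The upstream region unc80 -833 had 20.8, 22.1, 25.8 and 22.8 CPM in per01, against 16.1, 15.4 and 16.4 CPM in wild type, with no overlap and a change of 0.52 ± 0.08 (adjusted p = 0.0043). Ca-alpha1T -165 changed by 0.36 ± 0.08 (0.028), with 13.5, 14.8, 15.1 and 16.3 CPM, against 11.8, 12 and 11.3 CPM. The others were Ih +14030 (0.59 ± 0.17, 0.099) and Ca-alpha1T +3534 (0.52 ± 0.15, 0.099). The count of 5 was 3 without non-clock DD replicate 1 or 2 of wild type or replicate 2, 3 or 4 of per01. Both genotype comparisons and the regime comparisons share the wild-type DD libraries.

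Counts for other channel genes are set beside those of the 9 genes. A list of 24 further genes (sodium channel partners, calcium channel subunits, cyclic nucleotide-gated and TRP channels, and the leak channel factor Nlf-1) held 145 regions at 20 of them. Of these 32 were higher and 27 lower of 98 in clock neurons in LD, 35 and 22 of 97 in DD and 27 and 20 of 91 in per01, where the series shares given above were 33.6% and 23%, 28% and 27%, and 26% and 22.3%. Between ZT12 and ZT0 0 of 88 passed, and between CT36 and CT24 0 were higher and 3 lower of 80 in wild type. The series shares in either direction were 0.174% and 0.613%. In clock neurons 13 were higher and 10 lower of 83 in DD than in LD, and in non-clock cells 6 and 14 of 92, against series shares of 9.1% and 12.6%, and of 7.75% and 8.33%. Between per01 and wild type 4 were higher and 8 lower of 76 in clock neurons, and 0 and 5 of 93 in non-clock cells, where the 9 genes had 1 and 6 of 47 and 4 and 1 of 59. Here the series shares were 7.3% higher and 7.21% lower in clock neurons, and 2.12% and 2.75% in non-clock cells. Whether the lists differ was not tested.

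Among them, 5 regions of the TRP channel gene Trpm and 3 of NaCP60E, another gene of the sodium channel family, were higher in clock neurons in all 3 comparisons. The largest change at NaCP60E was 1.74 in LD, 1.00 in DD and 1.38 in per01, and that at Trpm, among its regions with calls in both cell types each time, was 1.82, 1.54 and 1.04. In all, 26 regions of the list were called in the same direction in all 3 comparisons. Over the series, 19.3% of the 19360 regions tested in all 3 were called higher each time and 12.0% lower. How many regions of this list were tested in all 3 was not counted. In 8 of the 26 regions 1 cell type had no call in at least 1 comparison. At tipE, which encodes a partner of the Para channel, 1 region was lower each time (-1.38, -1.39 and -1.45). At Teh1, a relative of tipE, 2 regions were higher and 4 lower. The other genes with such regions were CngA (2 higher), Cngl (1 higher and 3 lower), trpl (2 higher), Trpgamma and nompC (1 higher each) and Nlf-1, named Mid1 in the annotation (1 lower).

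The genes whose summed level was most like that of na over the 33 libraries were CG13404 (Pearson r = 0.94 of log2 CPM among 6471 genes), whose start lies 117 bp away and shares the na region, then l(1)G0196 (0.71) and CG15572 (0.65). All 3 are on the X chromosome, and the points share the light regimes and depths described above.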

How the data were processed

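ATAC-seq peak lists of 33 libraries in 9 groups were used, all on dm6. The authors trimmed reads with cutadapt 4.1, aligned them with Bowtie2 2.4.5, removed duplicate and mitochondrial reads with SAMtools 1.15.1 and Picard 2.27.4, and called peaks in each library separately with MACS2 2.2.7.1 at an extension of 74 bp. Tool versions are those of the submitters' processing notes.

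The deposited lists hold a score that was not used, a fold enrichment ratio at the summit and its −log10 p and q values. Tag numbers at the summit were solved from the deposited fold ratio and −log10 p and were whole within 0.02 tags for every peak. Total tags followed from the genome-wide background over 120000000 bp. They count tags in the authors' filtered reads.

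Peaks sharing at least 1 bp were merged, and a region took its highest summit. A missing call took the library's lowest called tag number, and no change is given where one side had no call at all. log2(tags + 1), scaled by the median of ratios, was fitted with limma 3.58.1 in R 4.3.3 (trend on), with Benjamini-Hochberg adjustment over all regions tested and a threshold of 0.1. Regions called in fewer libraries than the smaller side were left out. Differences of changes were interaction terms. Gene sums were tested on log2(CPM + 1). The steps were tested on simulated data with 200 changed regions. Other software was matplotlib 3.10.9, scipy 1.17.1, pandas 2.3.3 and numpy 2.4.6 under Python 3.11.15, with Ensembl 115 gene models and Release 6 sequence from RefSeq.

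Repeats are separate samples by their labels. Nothing says that they came from separate crosses or days, so p-values measure the spread between these samples. Library totals limit the precision, and a difference below the weakest called peak is not detectable. The labels and the paper differ on the length of darkness and the number of brains.

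The genes and lists were chosen with earlier results of these data known. Named regions were, for each gene, the highest promoter and intron region, and for each comparison and direction up to 3 called regions with the largest change. For na the 3 genes most like it were named, and other channel genes where they passed in all 3 cell type comparisons. Regions named outside this rule were chosen after their values were seen. The alternatives were total tags as the scale, X and other chromosomes scaled apart, 2 other limits for missing calls, regions called in every library, no filter, a pseudocount of 5, a replicate block, chained summits, merging of the compared libraries only, a threshold of 0.05 and leaving out each library. The limit of the region itself for missing calls was added after seeing the data.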

Additional observations from a re-analysis of the deposited data

Results flagged for a closer look

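In the values named, 15 of 189 groups of 4 libraries held a library far from the rest by Dixon's test. Chance flags about 1 in 20 groups. The explanations of these were not tested.

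Among the gene sums, unc79 had 27.6 CPM in wild-type non-clock LD replicate 1 and 25.0 to 25.2 CPM in the other 3. The para sum was 134 CPM in per01 CT36 replicate 2 and 112 to 114 CPM in the others. The Ca-alpha1D sum was 36.1 CPM in wild-type ZT0 replicate 2 (others 21.6 to 23.4) and 29.3 CPM in wild-type non-clock LD replicate 2 (others 17.1 to 18.6). TrpA1 had 2.87 CPM in wild-type ZT12 replicate 4 and no call in the others.

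Among promoters, unc79 -341 had 9.56 CPM in per01 non-clock replicate 3 (others 12.1 to 12.4), unc80 -203 had 55.2 CPM in per01 CT24 replicate 3 (others 49.7 to 50.0) and Ih -43 had 39.4 CPM in the same library (others 32.3 to 33.4). At cac +1140 per01 non-clock replicate 4 had 16.8 CPM (others 15.7 to 15.8), at Ca-alpha1D +2521 wild-type non-clock LD replicate 1 had 15.5 CPM (others 13.6 to 13.9), and at Ca-alpha1T -165 wild-type ZT0 replicate 2 had 16.3 CPM (others 12.8 to 13.4).

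Among the other regions, Ih +4558 had 6.89 CPM in wild-type ZT0 replicate 3 (others 9.85 to 10.1), Ca-alpha1T +87542 had 6.99 CPM in per01 CT24 replicate 3 (others 4.16 to 4.54), Ca-alpha1T +13172 had 6.5 CPM in per01 CT24 replicate 4 (others 4.84 to 5.05), and unc80 -833 had 21.2 CPM in wild-type non-clock LD replicate 2 (others 16.7 to 17.1). Replicate 3 of per01 CT24 was the high library in 3 of the 15.

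The change between clock neurons and non-clock cells differed between DD and LD by an interaction term at unc80 -833, by 0.50 on the log2 scale, and at Ca-alpha1T +34507, by 1.13, where all clock neuron values were levels set for missing calls. The first rests in part on the high wild-type non-clock LD replicate 2 named above, without which it was 0.41 and missed the threshold.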

How the results depend on the processing

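Of 815 alternative values for the 38 region results of the named regions, 720 kept direction and side of the threshold, 95 kept the direction and missed the threshold, and none reversed. In 674 calls compared over 5 scalings and limits, 0 were called in the other direction. Those lost in the largest numbers were TrpA1 +2692 in DD over LD (16 of 23), cac +1472 in DD over LD (14 of 24), para +22210 in per01 over wild type (14 of 24), Ca-alpha1T +3534 at CT36 (11 of 16) and, in non-clock cells in per01 over wild type, Ih +14030 (11 of 17) and Ca-alpha1T +3534 (11 of 18).

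Counts of called members moved by over 1.5 times as follows, and the cause was not tested beyond the fewer regions that a filter leaves. With regions called in every library, the cell type counts were 21 in LD, 12 in DD and 10 in per01, the CT36 count in wild type was 3 and the DD and LD difference of the cell type change was 1. The CT36 count was 0 with the limit of the region for missing calls, no filter, chained summits, a threshold of 0.05 or the replicate block. Non-clock DD over LD gave 8 with the X scaled apart. For per01 over wild type, clock neurons gave 4 at a threshold of 0.05, and non-clock cells 3 at that threshold, relative to total tags, with no filter or with the replicate block. The difference of the cell type change gave 4 relative to total tags and 1 at the local limit. Gene sums read by the highest summit gave 4 in LD, 3 in DD and 1 in per01.

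Same-numbered samples did not deviate together throughout any fit, with correlations down to -0.23 and up to 0.49. Some same-numbered libraries did stand out. Between ZT0 and ZT12, replicates 1, 2, 3 and 4 had correlations of 0.09, 0.36, -0.05 and 0.44, while unlike numbers had -0.44 to 0.12. Whether the replicate numbers mark pairs is not settled by these values, and the main fits used no replicate block. The replicate block gave 5 gene sums in per01 and moved no other count by over 1.5 times than those named.

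Leaving out each library in turn gave 32 to 42 members for the cell type change in LD, 22 to 29 in DD and 19 to 25 in per01, 0 to 0 between ZT12 and ZT0, 0 to 6 between CT36 and CT24 in wild type and 0 to 0 in per01. It gave 13 to 20 for DD over LD in clock neurons and 10 to 30 in non-clock cells, 4 to 9 for per01 over wild type in clock neurons and 3 to 6 in non-clock cells, 1 to 6 for the difference of the cell type change, 0 to 0 for that of the time change between DD and LD, 0 to 1 between per01 and wild type, and 2 to 3, 3 to 7 and 1 to 4 gene sums in LD, DD and per01. Depth limits clock neurons most, whose weakest peaks stand at 1.47 to 2.63 CPM.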
